A study of Drosophila melanogaster with 2 samples.

Results

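Segment polarity genes set up the repeated anterior and posterior parts of each body segment in the fly embryo. The 9 described here are the homeodomain genes en and inv, the ligand genes wg and hh, the Hedgehog receptor and transducer genes ptc and smo, the paired-class gene gsb, and arm and nkd of the Wingless pathway. They were taken by gene symbol from 17301 genes in the deposited tables, by a rule that names symbols and no values but was written with earlier results of these data known, and all 9 passed the filter on low values that left 10576 genes. Together they have 19 of the 33887 transcripts in the tables.

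The study sequenced poly(A) RNA of whole Drosophila melanogaster embryos aged 0 to 16 h and kept at 25 °C, as 1 library of pooled embryos per genotype. The embryos of the first library carried P{en2.4-GAL4}e22c, a GAL4 driver, and P{TRiP.JF02125}attP2, which makes RNA interference against the LIM-homeodomain gene Lim3. Those of the control library carried the same driver and P{y+t7.7=CaryP}attP2, an insertion with no interference construct. Both carried P{tGPH}4 over a wild-type chromosome and the alleles y1 and w*, in some embryos with v1, and the driver stock was balanced over TM3, Ser1. The driver holds regulatory DNA of en, which makes en its host gene, and the e22c line is known to act broadly in the embryonic epidermis. The driver was present in both crosses, so no library here shows the genes without it.

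In the cellular embryo, cells of the posterior compartment express en and inv and secrete Hedgehog. Hedgehog binds Patched on the neighbouring cells, which releases Smoothened from inhibition and keeps wg on there. Wingless in turn acts through Armadillo, the fly β-catenin, and keeps en and hh on across the parasegment boundary. naked cuticle is induced by Wingless and limits its signal, and gooseberry helps to hold wg expression in the epidermis.

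Several features of the libraries touch every value below. Lim3 itself was at 18.5 FPKM (mapped fragments scaled to transcript length in kilobases and to a library of 1000000) in the first library and 5.81 FPKM in the control, against the direction its label implies, and that library is therefore called the library labelled knockdown, or knockdown-labelled. The body colour gene y, whose y1 allele both crosses carried, was at 12.7 and 5.33 FPKM (a log2 difference of 1.11). The control insertion also names a y+ copy, and the part of transgene copies in these values was not tested. Depth, read from the smallest values in the tables, was about 34000000 fragments in the knockdown-labelled library and 24400000 in the control. Embryo markers were present in both, and the 8 markers of the adult ovary summed to 1.94 and 3.09 FPKM, with Cp16 listed at 0 in the control library. The 4 matched markers of the adult male tract summed to 7.34 and 3.65 FPKM, with SP the highest, at 5.71 and 1.37 FPKM. SP has a transcript of 223 nt and stood on about 43 and 7 fragments. Acp36DE went the other way, at 0.639 and 1.20 FPKM, and the others were below 1 FPKM in both libraries. The part of adult tissue in any result was not tested. In each pair of values, here and below, the knockdown-labelled library comes first. With 1 library per group there is no replicate check and no p-value. The 95% intervals given with ratios come from estimated fragment numbers and cover counting error only. For the ratio of a gene between the libraries, the interval is set around the deposited value and would shift with any rescaling.

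None of the 9 genes differed by the size rule, an absolute difference of at least 1 on the scale log2(FPKM + 1), which is 2-fold well above the pseudocount. Of all tested genes 2.39% did, so a count of 0 in 9 is near the background. The differences of the 9 ran from -0.17 for smo to 0.17 for nkd. A range of that width holds 47.7% of all tested genes and 53.1% of the 3270 genes with a mean level of 5 to 20 FPKM. The median of the 9 was -0.06, and the median of all tested genes was -0.04.

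**Figure D1:**
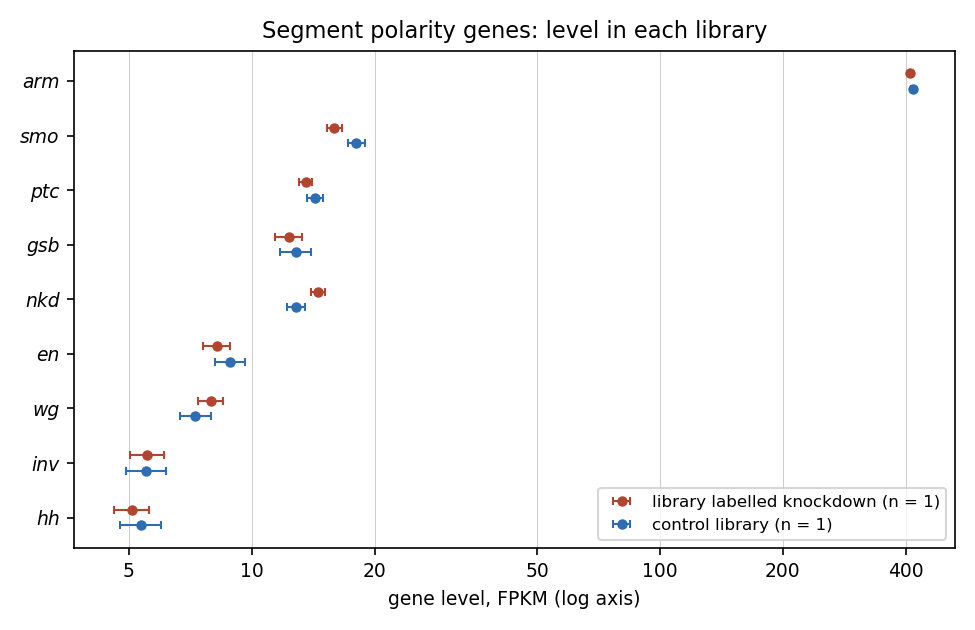
Level of each segment polarity gene in the knockdown-labelled library and the control library, in FPKM on a log axis, with 1 point per library. Bars are exact Poisson 95% intervals of the estimated fragment number and cover counting error only. arm stands alone near 400 FPKM, and the other 8 genes lie between 5.08 and 18.0 FPKM.

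The levels fell into 3 tiers, and FPKM is per length, so they can be set side by side. arm was by far the highest, at 411 and 416 FPKM, which is 25.8 and 23.1 times the level of smo, the next gene. A middle tier held smo, nkd, ptc and gsb between 12.3 and 18.0 FPKM. A low tier held en, wg, inv and hh between 5.08 and 8.86 FPKM. In bulk RNA from whole embryos, few cells with much RNA and many cells with little cannot be told apart.

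Within the tiers some neighbours could not be ordered. inv and hh differed by less than counting error in both libraries, with ratios of 1.09 (0.95 to 1.25) and 1.03 (0.88 to 1.21). en was above wg in both, by 1.03 times (0.93 to 1.15) in the knockdown-labelled library and by 1.22 times (1.08 to 1.38) in the control. nkd was the third highest of the 9 in the knockdown-labelled library and the fifth in the control, where it stood level with gsb at 12.8 FPKM each. The other 8 genes held their rank or moved by 1 place.

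engrailed, the host gene of the driver, encodes the homeodomain selector of the posterior compartment. It was at 8.20 FPKM in the knockdown-labelled library and 8.86 FPKM in the control, on about 687 and 536 fragments. The ratio was 0.93 (0.83 to 1.04), a log2 difference of -0.10, and the interval holds 1. Since the driver is common to both crosses, the comparison does not bear on what the driver itself adds.

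en lies on the minus strand of 2R at 7411511 to 7415715 in the coordinates of the files. Its 2 transcripts encode the same 552 residues in the current annotation and differ in how far the first exon extends upstream. FBtr0088096, the shorter with 2465 nt, held all of the gene's FPKM in the knockdown-labelled library and 97.7% in the control. FBtr0088095, which reaches 327 nt farther upstream, was listed at 0 and at 0.207 FPKM, the latter about 14 fragments.

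invected, the en paralog next to it, was at 5.54 and 5.51 FPKM. The ratio was 1.01 (0.87 to 1.17), the closest to 1 among the 9 genes, on 429 and 308 fragments. inv lies at 7361970 to 7397200 on the plus strand of 2R, and in the current annotation 14310 nt separate the 3' ends of the neighbours. The ratio of en to inv was 1.48 in the knockdown-labelled library and 1.61 in the control, and those ratios differed by 0.92 times (0.76 to 1.11), within counting error.

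Almost all inv signal was assigned to 1 transcript. FBtr0088069 with 2261 nt held 99.1% and 98.7% of it, at 5.49 and 5.43 FPKM. FBtr0088068, with a separate upstream first exon, was at 0.032 and 0.025 FPKM. FBtr0345673, with a last exon that runs 2515 nt farther, was at 0.019 and 0.048 FPKM, which is 3 and 6 fragments. All 3 encode the same 576 residues.

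The genes that flank the en and inv pair were a little lower in the knockdown-labelled library. E(Pc), a chromatin gene named for enhancing Polycomb mutations, was at 15.7 and 17.6 FPKM (log2 -0.15), and tou, a chromatin protein gene, at 23.7 and 26.6 FPKM (log2 -0.16). Both differences are larger in size than those of en and inv, and both are within the spread of all tested genes, whose quartiles were -0.23 and 0.13.

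wingless encodes a secreted Wnt ligand. It was at 7.94 FPKM in the knockdown-labelled library and 7.28 FPKM in the control, on 788 and 519 fragments. The ratio was 1.09 (0.98 to 1.22), a log2 difference of 0.11. Its single transcript, FBtr0079432 with 2919 nt, lies on 2L at 7307159 to 7316265.

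Of the Wnt genes beside wg on 2L, Wnt4 was at 11.7 and 9.22 FPKM, a log2 difference of 0.32 (ratio 1.16 to 1.39). Wnt6 was at 2.40 and 2.19 FPKM, a ratio that counting error cannot set apart from 1 (0.89 to 1.36). Wnt10 was under the filter, at 0.507 and 0.555 FPKM.

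hedgehog encodes the secreted signal of the posterior compartment. It was the lowest of the 9 genes in both libraries, at 5.08 and 5.35 FPKM, on 410 and 310 fragments. The ratio was 0.95 (0.82 to 1.11), so a difference of this size was not detectable at this depth. Its single transcript, FBtr0100506, has 2370 nt and encodes 471 residues, on the minus strand of 3R at 18953891 to 18967628. wg was 1.56 times hh in the knockdown-labelled library and 1.36 times in the control, and the change between them (1.15, 0.95 to 1.38) was within counting error.

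patched encodes the Hedgehog receptor and is itself induced by the signal. It was at 13.5 FPKM and 14.3 FPKM on about 2542 and 1932 fragments. The ratio was 0.95 (0.89 to 1.00), with an upper bound just over 1. ptc lies on 2R at 4537154 to 4552728, and a noncoding gene on the opposite strand, CR44281, at 0.294 and 0.453 FPKM, overlaps it by 800 nt.

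smoothened encodes the membrane protein that passes the signal on. It was at 15.9 FPKM in the knockdown-labelled library and 18.0 FPKM in the control, on 2171 and 1766 fragments. The ratio of 0.88 (0.83 to 0.94) was the lowest of the 9, and the interval leaves out 1. It stood at percentile 31.8 of the differences of all tested genes, well inside their middle range.

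smo has 1 transcript of 4008 nt that encodes 1036 residues, on 2L at 277582 to 282167 in the Release 6 annotation. The span given in the files covers its neighbours too. CG11601 and CG17078, on the opposite strand, overlap smo by 498 and 653 nt, with CG11601 at 42.2 and 50.3 FPKM and CG17078 at 33.2 and 32.0 FPKM. Whether the counting used strand is not given in the sources used here, so the part of those overlaps in the value of smo was not tested. ptc stood at 0.85 of smo in the knockdown-labelled library and 0.79 in the control, a change of 1.07 (0.98 to 1.17).

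gooseberry encodes a transcription factor with a paired domain and a homeodomain. It was at 12.3 and 12.8 FPKM on 691 and 517 fragments, with a ratio of 0.96 (0.86 to 1.08). It has 1 transcript of 1649 nt, the shortest among the main transcripts of the 9 genes, on 2R at 20949487 to 20952166. Its neighbour and paralog gsb-n, which acts mainly in the nervous system, was at 6.83 and 6.16 FPKM, a log2 difference of 0.13 against -0.06 for gsb. The ratio of gsb to gsb-n was 1.80 and 2.08, a change of 0.87 (0.72 to 1.04).

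naked cuticle encodes an EF-hand protein that binds Dishevelled and dampens the Wingless signal. It was at 14.5 FPKM in the knockdown-labelled library and 12.8 FPKM in the control, on 2458 and 1564 fragments. The ratio of 1.13 (1.06 to 1.21) was the highest of the 9. On the deposited scale, nkd and smo were the only members whose interval leaves out 1. Among all tested genes 61.7% had such an interval, 23.6% with a higher and 38.1% with a lower ratio, so 2 of 9 is below that share. The width of an interval depends on the fragment number, and no share was taken among genes of like level. The lower count therefore does not show that the members are steadier than other genes. nkd stood at percentile 79.2 of the differences of all tested genes, just above their upper quartile of 0.13.

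nkd has 3 transcripts, on the minus strand of 3L at 18996841 to 19038549, and they encode different proteins. FBtr0075039 with 5051 nt, the only form with a 377 nt coding exon, encodes 928 residues. It was at 11.9 and 10.8 FPKM and held 81.9% and 83.9% of the gene. FBtr0332649, without that exon, ends early at 553 residues and was at 1.98 and 1.80 FPKM.

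FBtr0332650 also lacks the exon, uses a splice site 11 nt away and encodes 806 residues. It was at 0.642 and 0.272 FPKM, a ratio of 2.36 (1.57 to 3.66) on 102 and 31 fragments. It differs from FBtr0332649 by those 11 nt alone in exon sequence. Transcript values rest on how the authors' software divided shared fragments, an error that no interval here includes. The forms without the exon together made up 18.1% and 16.1% of nkd.

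armadillo encodes the fly β-catenin, which serves both in adherens junctions, where every epithelial cell needs it, and as the nuclear effector of Wingless. It was at 411 and 416 FPKM on about 43608 and 31769 fragments. The ratio was 0.987 (0.972 to 1.001), the most precise of the 9 and, on the deposited scale, within counting error of 1. It lies on X at 1891401 to 1900646 on the minus strand in Release 6, and mRpL16 on the other strand, at 98.9 and 128.6 FPKM, overlaps it by 82 nt.

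The first exons of the 6 arm transcripts fall into 3 groups that do not overlap each other. FBtr0089992, with the most distal first exon, was at 123 and 116 FPKM, a ratio of 1.06 (1.03 to 1.09). FBtr0089991, whose first exon starts 473 nt downstream of that start, was the main form in both libraries, at 221 and 220 FPKM. These 2 transcripts have first exons of 137 and 130 nt that no other arm transcript overlaps.

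The remaining 4 transcripts have first exons that overlap one another in a stretch of 307 nt, which begins 1036 nt from the distal start. Together they were at 66.7 FPKM in the knockdown-labelled library and 80.4 FPKM in the control, which is 16.2% and 19.3% of the gene. The ratio of 0.83 (0.80 to 0.86) lies below those of the other first-exon groups, while the gene total hardly differed. Beyond the first exons the groups share nearly all exon sequence. The division among them therefore rests largely on the authors' software, an error that the interval does not include.

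Within that group the difference was assigned mostly to 1 form. FBtr0089988 was at 14.6 and 26.5 FPKM, a log2 difference of -0.82, the largest among the member transcripts and short of the size rule. Its exons hold 0 nt that no other arm transcript has, so the split from its group, too, rests on the authors' model. FBtr0332583 was at 0.648 and 0.254 FPKM, and FBtr0089989 was listed at 0 in both libraries.

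FBtr0089990 is the form that skips a coding exon of 97 nt and so encodes 721 residues where the other 5 transcripts encode 843. An Armadillo form with a shortened C-terminus, made by alternative splicing, is known from the nervous system. FBtr0089990 was at 51.4 and 53.6 FPKM and made up 12.5% and 12.9% of arm. The 5 transcripts for the long form summed to 359 and 363 FPKM, and the ratios of the short and long forms were 0.96 and 0.99. No exon base is unique to FBtr0089990, and in the files it is set apart from FBtr0089989 only by the exon it skips.

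**Figure D2:**
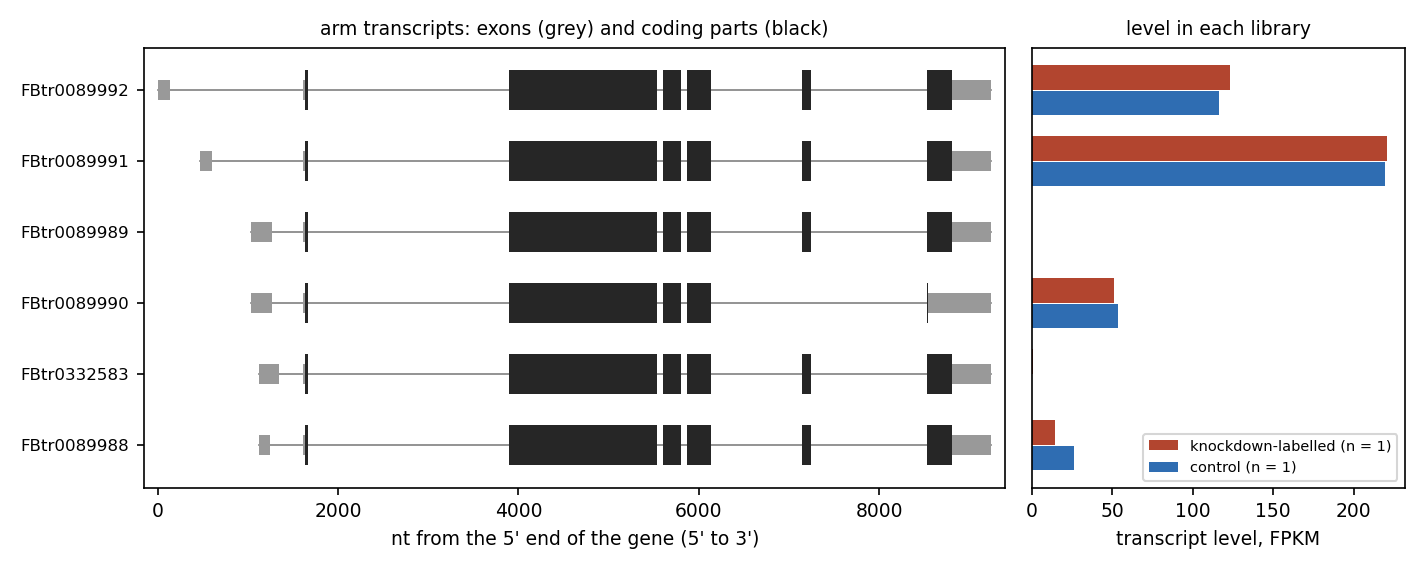
Left, the exons of the 6 arm transcripts against distance in nt from the 5' end of the gene, with coding parts in black; right, the FPKM of each transcript in the knockdown-labelled library and the control library, 1 value each with no error bars. The first exons fall into 3 groups that do not overlap, and FBtr0089988 of the third group, at 14.6 and 26.5 FPKM, shows the largest difference.

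Over all member transcripts, 13 of 19 reached 1 FPKM in at least 1 library, and 0 of these passed the size rule. Among all transcripts with that level, 7.31% did. 5 of the 9 genes have a single annotated transcript, for which no division was needed.

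The sign of most differences rests on how the libraries are scaled. As deposited, 3 of the 9 genes lay above 0 and 6 below, beside 4598 above and 5978 below among all 10576 tested genes. The FPKM of the libraries sums to 1122636 and 1363810, and rescaling the knockdown-labelled library to the sum of the control put all 9 above 0, from 0.10 for smo to 0.43 for nkd, while the median of all tested genes moved from -0.04 to 0.21. Rescaling to equal medians put 6 above 0 and moved that median to 0.03. Relative to the median of all tested genes, 4 of the 9 were above and 5 below under each of these scalings, with nkd and wg the highest and smo the lowest. The split of all tested genes past the size rule was 108 higher and 145 lower as deposited and 168 and 109 after rescaling to equal sums.

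**Figure D3:**
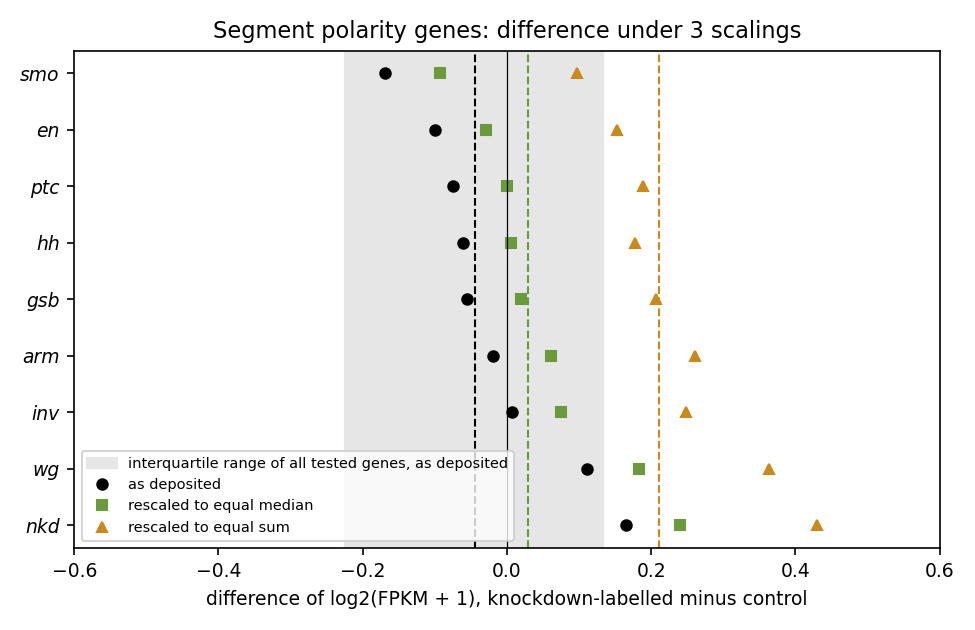
Difference of log2(FPKM + 1), knockdown-labelled library minus control, for each segment polarity gene as deposited and under the 2 rescalings. The grey band is the interquartile range of all tested genes as deposited, and dashed lines mark the median of all tested genes under each scaling. All 9 genes move with the scale by nearly the same step, and only nkd lies outside the band on the deposited scale.

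Transcript length also moved with the difference. Over 10 bins of length, the median of all tested genes was -0.16 in the shortest bin and 0.05 in the longest. The longest transcripts of the 9 genes have 1649 nt (gsb) to 5521 nt (ptc). Against genes of their own length class, smo was at -0.21, ptc at -0.13, en at -0.11, wg at 0.10 and nkd at 0.13. arm was at -0.03, hh at -0.04, inv at -0.03 and gsb at 0.03, and the sign of inv and gsb turned from 0.01 and -0.06 as deposited. The part of length in these values was not tested further.

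The other genes of the Hedgehog pathway lay on both sides of the background. Of 17 genes, 12 were above 0 and 5 below, with a median of 0.06, and 0 passed the size rule. All 8 genes for the surface co-receptors, the glypicans and their synthesis, and transport were above 0, with a median of 0.09. Of all 10576 tested genes, 4598 were above 0. The interval of the ratio lay above 1 for 3 of the 8, beside 23.6% of all tested genes. Among the 8, dlp, a glypican that binds Hedgehog and Wingless, was at 19.3 and 15.9 FPKM (log2 0.26). dally, the related glypican, was at 7.18 and 5.97 FPKM (0.23), and the ratio of dally to dlp was 0.37 in both libraries.

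Of the 7 intracellular genes, 3 were above 0 and 4 below. rdx, which encodes an adaptor for degradation of Ci, had the largest difference of the list at 78.4 and 59.7 FPKM (0.39). ci, the transcription factor of the pathway, was at 24.3 and 21.9 FPKM (0.15). Su(fu), which holds Ci back, was at 55.8 and 67.0 FPKM (-0.26). Outside that group, disp, needed to release Hedgehog from the cells that make it, was at 9.84 and 12.0 FPKM (-0.26).

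Of the 15 other Wingless pathway genes, 4 were above 0 and 11 below, with a median of -0.07 and 0 past the size rule. Against the median of all tested genes, 7 lay above and 8 below. Apc2, a scaffold of the complex that destroys Armadillo, had the lowest value of all listed pathway genes, at 23.6 and 31.2 FPKM (-0.39, ratio 0.72 to 0.80). por, which acylates Wnt proteins for secretion, was at 8.80 and 10.7 FPKM (-0.26), and dsh, the transducer that Nkd binds, at 32.2 and 36.5 FPKM (-0.18). After rescaling to equal sums the list median was 0.20, just below that of all tested genes.

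The antagonists that Wingless induces lay above 0 by small amounts. fz3 was at 14.5 and 12.0 FPKM (0.25) and Notum at 3.31 and 2.76 FPKM (0.20), beside the 0.17 of nkd. The intervals of the ratios leave out 1 for fz3 (1.10 to 1.33), Notum (1.02 to 1.40) and nkd, a state met in 23.6% of all tested genes in this direction. nkd is a member and the other 2 come from a list of 15, and no test of the group was made.

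The kinase and ligase genes that serve both pathways differed little. CkIalpha was at 45.3 and 41.1 FPKM (0.14), sgg at 48.2 and 44.4 FPKM (0.12) and slmb at 42.5 and 40.3 FPKM (0.08).

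Pair-rule genes, which set the first stripes of en and wg, were at levels like those of their targets. 5 of 7 were below 0, with a median of -0.0044. Against the median of all tested genes, -0.04, 4 lay above and 3 below. prd, an activator of en, wg and gsb, was at 4.90 and 6.64 FPKM (-0.37), and ftz, an activator of en, at 8.54 and 10.2 FPKM (-0.23). h was at 12.5 and 10.9 FPKM (0.18) and run at 9.63 and 9.20 FPKM (0.06).

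Other segmental transcription factors had a median of 0.18, with 5 of 6 above 0. slp1, a forkhead factor that maintains wg, was at 27.1 and 22.2 FPKM (0.27), whereas its neighbour and paralog slp2 was at 8.64 and 8.59 FPKM (0.01). The ratio of slp1 to slp2 was 3.13 and 2.59, a change of 1.21 (1.05 to 1.40), the only one of the 10 gene pairs compared whose interval leaves out 1. mid, a T-box factor, was at 9.59 and 8.04 FPKM (0.23), and its paralog H15 at 3.92 and 3.21 FPKM (0.23). lin was the member of the list below 0, at 22.0 and 23.1 FPKM (-0.07).

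Cofactors of Engrailed and genes of the Polycomb group, which keeps en silent outside its stripes, had a median of 0.06. hth, whose product works with Exd and Engrailed, was at 22.9 and 26.8 FPKM (-0.22), and the corepressor gene gro at 55.2 and 60.0 FPKM (-0.12). Pc, a subunit of the Polycomb complex, was at 14.6 and 12.7 FPKM (0.19), and ph-p at 14.3 and 12.8 FPKM (0.14). 0 of these 9 passed the size rule.

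Epidermal genes that act downstream of the segment polarity signals had a median of 0.15, with 5 of 6 above 0. D, a Sox factor, was at 34.0 and 25.8 FPKM (0.38), and stet, which encodes a protease of the Rhomboid family, at 14.0 and 10.7 FPKM (0.36). Ser, a Notch ligand gene, was at 7.89 and 8.54 FPKM (-0.10), and the driver stock carried the allele Ser1 on its balancer. Over the 7 pathway lists together, 63 genes were tested, 0 passed the size rule, and their median was 0.06. As deposited, 42 lay above the median of all tested genes and 21 below. With the length trend removed, the median of the 63 was 0.03, where that of all tested genes is 0.

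**Figure D4:**
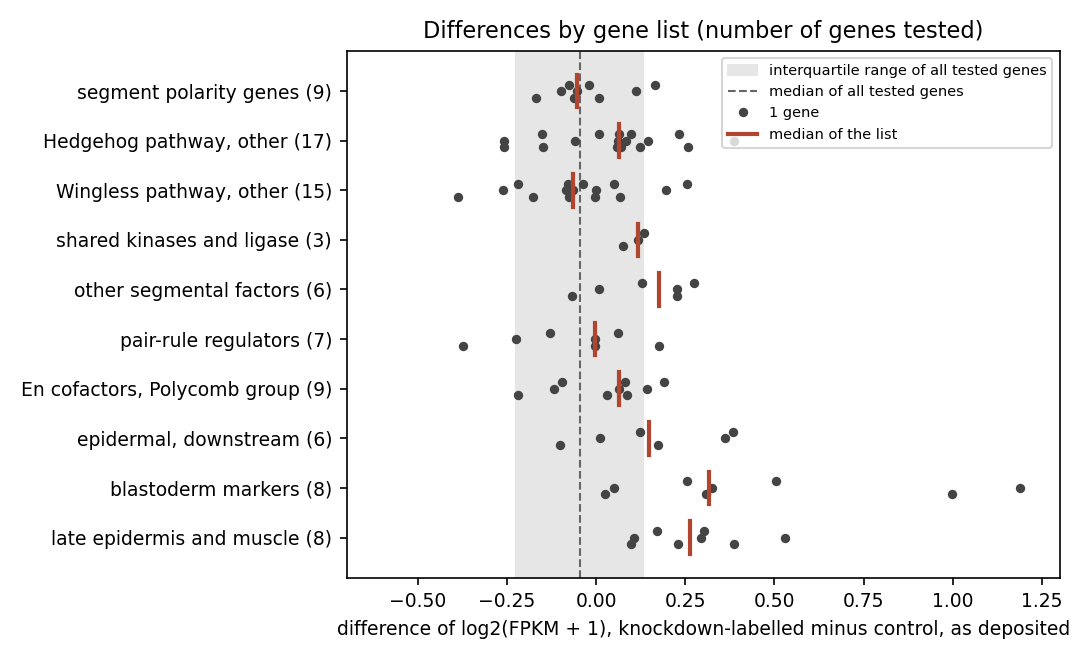
Difference of log2(FPKM + 1), knockdown-labelled library minus control on the deposited scale, with 1 point per gene, for the segment polarity genes, the 7 pathway lists and 2 lists of stage markers. Red bars are list medians, and the grey band and dashed line are the interquartile range and the median of all tested genes. The segment polarity genes centre at -0.06, and all 16 stage markers lie above 0.

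Values of stage markers are given beside those of the 9 genes. All 8 blastoderm markers were above 0, with a median of 0.32, and summed to 271 and 181 FPKM. halo, a gene of early lipid droplet transport, was the only one past the size rule, at 71.5 and 30.8 FPKM (log2 1.19), with bnk, a gene of cellularization, just short of it at 32.8 and 15.9 FPKM (0.998). sna, a mesoderm gene of the same list, was at 23.7 and 23.3 FPKM (0.02).

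All 8 markers of late epidermis and muscle were also above 0, with a median of 0.26, and summed to 1952 and 1578 FPKM. neo, an epidermal apical matrix gene, was at 82.4 and 56.7 FPKM (0.53), and TwdlM, the highest of the list, at 752 and 574 FPKM (0.39). Mhc, the muscle myosin gene, was at 286 and 265 FPKM (0.11). The interval of the ratio lay above 1 for 6 of the 8 blastoderm markers and 7 of the 8 late ones, beside 23.6% of all tested genes. Markers of the start and of the end of the collection thus stood higher in the same library, and their part in the values of the 9 genes was not tested.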

How the data were processed

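Each of the 2 libraries has 1 deposited table of FPKM per annotated transcript, as named in the file headers. Per the submitters' processing notes the authors used TopHat (version given as 0.6) and Cuffdiff; their settings, the build and the annotation were not given in the sources used here. The libraries came from a directional kit and, per the labels' protocols, held gel-purified molecules of 250 to 400 bp. The scaffold names 2RHet and U mark the files as Drosophila Release 5. File coordinates are printed 1-based and only where the span is as long as the gene in Release 6. Transcript structures, strands and Release 6 positions come from Ensembl release 115 or, for wg, RefSeq.

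Transcripts were summed by gene identifier, and 365 without one were left out (0.0227% and 0.0246% of FPKM). Differences are of log2(FPKM + 1), which understates the change of low genes, for genes that reach 1 FPKM in either library. Separate FPKM values per library are compared as deposited. Depth was taken from the most frequent low value of FPKM times length among genes with 1 transcript of 1500 to 6000 nt, 29.4 and 40.9, read as 1 fragment. Ratios have exact binomial (Clopper-Pearson) 95% intervals around the deposited ratio, levels exact Poisson ones, and ratios of ratios normal approximations on the log scale. The files hold no counts, so fragment numbers are estimates. The functions were tested on simulated data. Python 3.11.15, numpy 2.4.6, pandas 2.3.3, scipy 1.17.1 and matplotlib 3.10.9 were used.

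The 9 members, the gene lists and the size rule were chosen with earlier results of these data known. All members and their transcripts are named; of the other lists, genes past the size rule and otherwise up to 2 per direction with the largest difference are named. Genes beyond that were chosen after their values were seen: dally, ci, dsh, slmb, slp2, H15, Wnt6, Wnt10, Cp16, Acp36DE, bnk, sna and Mhc. So were the genes that overlap ptc, smo and arm. sotv is listed as Ext2 in the files, and 1 of the listed symbols, Acp70A, was not matched. No likeness of pattern between genes was computed, since 2 libraries give none. Alternatives were other pseudocounts, filters, scalings, a length correction, the main transcript alone and other depth windows.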

Additional observations from a re-analysis of the deposited data

How the results depend on the processing

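No paired analysis was possible because each group is 1 library, and leaving out a replicate was not possible for the same reason. None of the 9 segment polarity genes and none of the 63 pathway genes passed the size rule under any alternative run. The number of all tested genes past it was 177 higher and 210 lower with a pseudocount of 0.1, 52 and 90 with a pseudocount of 5, and 168 and 109 after rescaling to equal sums, against 108 and 145. The median of the 9 was 0.21 after rescaling to equal sums, and 0.02 after rescaling to equal medians, against -0.06, and lay between -0.06 and -0.03 under the other alternatives. The median of the 63 pathway genes was 0.31 after rescaling to equal sums and 0.13 after rescaling to equal medians, against 0.06. A rescaling adds the same step to every gene well above the pseudocount, which by construction accounts for these shifts. Depth windows of 1000 to 3000 and 2000 to 5000 nt, chosen after seeing the data, left 2 members with an interval that leaves out 1. A window changes the width of an interval but not its centre, the deposited ratio, so this count could hardly move. The count was not taken under the rescalings, which would shift the centres. The 4 least abundant genes, hh, inv, wg and en, stand on 308 to 788 fragments a library. On the deposited scale the counting intervals of their ratios all hold 1.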
